A study of Homo sapiens with 24 samples.

Results

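The 10 genes described here are PDK4, IRS2, INSR, CCNG2, TXNIP, SESN1, SESN3, FOXO1, FOXO3 and KLF9, a set known to respond to FOXO transcription factors or to growth factor withdrawal. They were taken by name from the 19775 genes that the arrays measured, and each is given by its brightest probe set, the one with the highest mean over all 24 arrays. Arrays were read by their labels and by the log2 level of TACC3, which set apart 9 low-TACC3 arrays, at 10.49 to 11.43, and 15 high-TACC3 arrays, at 11.82 to 12.62, by a threshold that lies between them. The cells were RT112, an established human bladder cancer line known to carry a fusion of FGFR3 to TACC3. All groups were transduced with a doxycycline-inducible short hairpin RNA (shRNA). In 3 lines, labelled 2-4, 4-1 and 6-16, the shRNA was directed at FGFR3, and in the control line at EGFP, a target that human cells lack. Each of the 4 lines had 3 arrays with 1 µg/ml doxycycline for 48 h and 3 without it, all in medium with 1% serum, which makes 8 labelled groups. The labels do not say whether a transduced line is a clone or a pool. The labels do not say that the 3 arrays of a group came from separate cultures, so p-values measure the spread between arrays, which may be technical.

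FOXO1 and FOXO3 are forkhead transcription factors. When growth factor receptors signal through PI3K and AKT, AKT phosphorylates them and they leave the nucleus. When that signal falls, they return to the nucleus and activate genes that restore insulin sensitivity, spare glucose, slow the cell cycle and restrain mTORC1. FGFR3 is one of the receptors that can feed this pathway, and EGFP hairpins should leave it alone.

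The labels were not borne out by the brighter probe set of the targeted gene. On its brighter probe set, FGFR3 had log2 levels of 11.28 to 12.34 on the 9 arrays labelled as FGFR3 lines with doxycycline, and 11.36 to 12.27 on the 9 labelled as the same lines without it. These ranges overlapped almost fully. By label, FGFR3 differed with doxycycline by 0.15 (2-4), -0.24 (4-1), 0.42 (6-16) and 0.16 (EGFP) on the log2 scale, with a standard error (SE) of 0.31 and limma adjusted p of 0.999, 1.00, 0.760 and 0.98. The dimmer FGFR3 probe set followed the brighter one only weakly over the arrays (Pearson r 0.25), and its change by label was not tested. It was lowest on the 9 low-TACC3 arrays, of which 4 had a doxycycline label and 5 did not. Every direction by label below therefore rests on the library labels alone. The luminal and epithelial markers of the cells were bright: 11 of 11 measured urothelial genes lay above the median probe set signal. Of 9 leukocyte markers 6 lay below the median probe set signal, but only 3 of 9 fibroblast and 2 of 6 endothelial markers did. A bulk array cannot tell fewer cells of a kind from less RNA per cell.

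The division by TACC3 is a split by a measured value and no group of the study, so the levels on its sides are given as a description with no test. The 9 low-TACC3 arrays carried every kind of label except 6-16 without doxycycline: 4 had a doxycycline label and 5 did not, and 6 named an FGFR3 hairpin and 3 the EGFP hairpin. The dimmer FGFR3 probe set split the arrays in the same way, at 8.71 to 9.88 on the 9 arrays and 10.34 to 11.20 on the 15. The gap in TACC3 at the threshold was 0.39. A wider gap of 0.52 lay inside the low side and set 3 arrays apart from the other 6.

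On the low-TACC3 arrays, the median level was higher for 10 of 10 genes, where 46.3% of all genes measured had a higher median. The genes and the threshold were chosen with earlier results of these data known, so this count is a description only. The median differences lay between 0.05 and 1.09 (log2), with a median of 0.23 against -0.01 over all genes. PDK4 and SESN1 were higher on each of the 9 arrays than on any of the 15. Such a separation upward was seen for 2 of the 10 genes and for 2.90% of all genes, or 3.41% of those with a mean log2 level of at least 6, and a separation downward for 0 of 10 and 3.09%. The other 8 genes overlapped between the sides. PDK4, with a mean log2 level of 5.61, is outside the set with a mean of at least 6, and SESN1 is inside it.

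**Figure D1:**
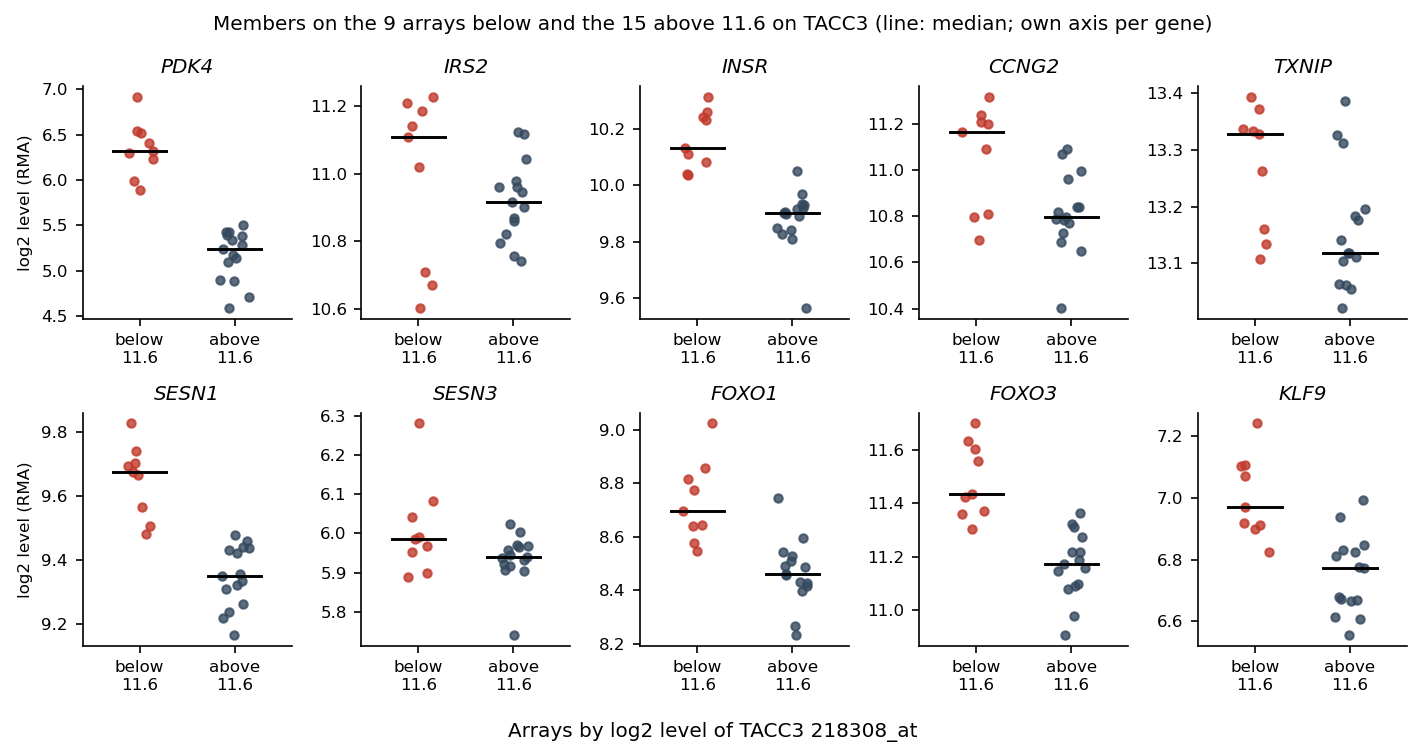
Log2 levels of the 10 genes on the 9 low-TACC3 arrays (left, red) and the 15 high-TACC3 arrays (right, dark), 1 point per array and a line at the median, with a separate axis for each gene. PDK4 (5.89 to 6.92 against 4.59 to 5.50) and SESN1 do not overlap between the sides, and the other 8 genes do.

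The promoters bear on whether these genes share the letters that FOXO factors are known to read. The 250 bases before each gene start in the RefSeq table (build GRCh38.p14) were searched on both strands for the forkhead motifs GTAAACA and ATAAACA and for CAAAACA, the core of the insulin response element. All 10 genes were in that table, with 16 starts. At least 1 of the 3 motifs was found at 3 of these starts, those of 3 genes, and at 10.4% of all 35116 starts. The single motifs were found at 2.98%, 3.77% and 4.3% of starts. A match is a description of letters and not a bound site. The starts with a match are printed with that of PDK4, the gene with the largest difference, whose window holds none. Capitals mark the motif, and positions count back from the start at the motif's first base. They are position -124 for TXNIP (GTAAACA), position -234 for FOXO3 (ATAAACA) and position -40 for IRS2 (CAAAACA read on the opposite strand).
TXNIP, chr1:145996580-145996829, minus strand: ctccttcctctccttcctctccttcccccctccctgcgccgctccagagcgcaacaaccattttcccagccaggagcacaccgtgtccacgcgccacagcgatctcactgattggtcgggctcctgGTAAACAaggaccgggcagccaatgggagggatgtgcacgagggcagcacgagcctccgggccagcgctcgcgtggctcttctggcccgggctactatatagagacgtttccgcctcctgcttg
FOXO3, chr6:108560667-108560916, plus strand: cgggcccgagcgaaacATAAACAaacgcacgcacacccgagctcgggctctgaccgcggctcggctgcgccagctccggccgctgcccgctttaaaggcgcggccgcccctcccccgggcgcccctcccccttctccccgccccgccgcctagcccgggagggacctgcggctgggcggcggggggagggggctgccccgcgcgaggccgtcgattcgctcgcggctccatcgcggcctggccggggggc
IRS2, chr13:109786584-109786833, minus strand: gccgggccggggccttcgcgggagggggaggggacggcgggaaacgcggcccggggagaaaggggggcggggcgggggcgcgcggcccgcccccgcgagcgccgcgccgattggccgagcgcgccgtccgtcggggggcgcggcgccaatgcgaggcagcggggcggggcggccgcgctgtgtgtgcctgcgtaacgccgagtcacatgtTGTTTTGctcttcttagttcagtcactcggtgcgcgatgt
PDK4, chr7:95596517-95596766, minus strand: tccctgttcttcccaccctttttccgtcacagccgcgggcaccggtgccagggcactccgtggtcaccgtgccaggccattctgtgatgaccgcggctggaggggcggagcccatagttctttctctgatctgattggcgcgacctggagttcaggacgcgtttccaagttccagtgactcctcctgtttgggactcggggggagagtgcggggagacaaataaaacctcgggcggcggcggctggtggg
TXNIP, FOXO3 and IRS2 had differences of 0.21, 0.26 and 0.19. These lay inside the range of the genes without a match in this window, from 0.05 for SESN3 to 1.09 for PDK4. A gene without a match may hold a motif outside the 250 bases, which were all that was searched.

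PDK4 encodes a kinase that switches off pyruvate dehydrogenase and so spares glucose carbon, and it is a textbook FOXO target. With doxycycline, its log2 levels on replicates 1, 2 and 3 were 5.39, 6.54 and 5.38 in the line labelled 2-4, against 5.14, 5.89 and 4.71 without. In the line labelled 4-1 they were 6.92, 4.59 and 5.42 with doxycycline, against 6.30, 6.41 and 5.23 without. In the line labelled 6-16 they were 5.50, 6.23 and 5.43 with doxycycline, against 4.89, 4.90 and 5.10 without. The EGFP line had 5.34, 5.29 and 5.99 with doxycycline, against 6.52, 5.17 and 6.32 without. With and without doxycycline overlapped in 3 of the 4 lines, and in the 6-16 line all 3 arrays with doxycycline were higher. In 7 of the 8 labelled groups, at least 1 array was a low-TACC3 array, and such arrays held the highest PDK4 values of their group, as the absence of overlap requires. On the low-TACC3 arrays the lowest, median and highest PDK4 levels were 5.89, 6.32 and 6.92, against 4.59, 5.23 and 5.50 on the high-TACC3 arrays. This signal was dim, at the 21.4th percentile of all probe set means, and the values used here do not show that it lay above background on the high-TACC3 arrays, so the difference is given with no fold. The other 2 PDK4 probe sets overlapped between the sides with median differences of 0.02 and -0.005. By label, PDK4 differed with doxycycline by 0.53 (2-4), -0.34 (4-1), 0.76 (6-16) and -0.46 (EGFP) on the log2 scale (SE 0.50), with limma adjusted p of 0.999, 1.00, 0.739 and 0.98. The change in the 4-1 line rested on 1 array: it was 0.19 without replicate 2 with doxycycline and -0.97 without replicate 1 with doxycycline. Single arrays also moved the values of the other lines. Leaving out doxycycline replicate 2 gave 0.14 for 2-4 and 0.50 for 6-16. For EGFP, leaving out an array that had no doxycycline gave -0.88 (replicate 2) or -0.21 (replicate 1).

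**Figure D2:**
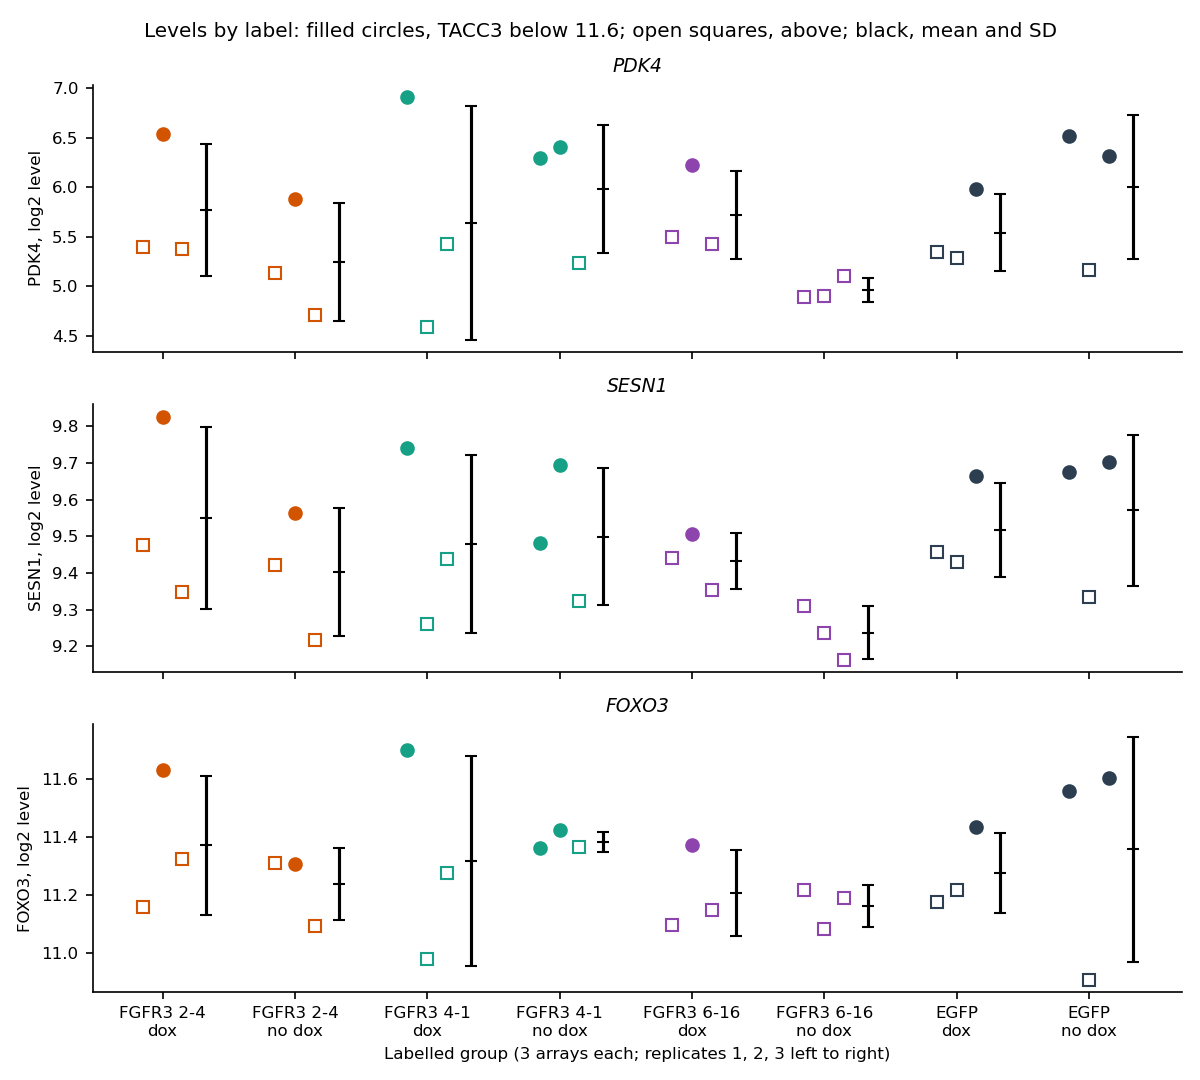
Log2 levels of PDK4, SESN1 and FOXO3 in the 8 labelled groups of 3 arrays, with doxycycline left of without in each line. Filled circles are low-TACC3 arrays, open squares high-TACC3 arrays, and black marks the mean and SD. PDK4 in the 4-1 line with doxycycline spans 4.59 to 6.92, and its highest array is the low-TACC3 one.

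SESN1, SESN3 and the related SESN2 encode sestrins, stress proteins that restrain mTORC1 through the GATOR complexes. SESN1 was higher on each of the 9 low-TACC3 arrays, with a lowest, median and highest level of 9.481, 9.67 and 9.83, against 9.16, 9.35 and 9.476 on high-TACC3 arrays. The sides did not overlap, but by a margin smaller than their SDs of 0.11 and 0.10. In the line labelled 6-16 its levels were 9.44, 9.51 and 9.35 with doxycycline, against 9.31, 9.24 and 9.16 without. In the EGFP line they were 9.46, 9.43 and 9.66 with doxycycline, against 9.67, 9.33 and 9.70 without. The 6-16 arrays with doxycycline lay above all those without, and the EGFP arrays overlapped. By label, SESN1 differed with doxycycline by 0.15 (2-4), -0.02 (4-1), 0.20 (6-16) and -0.05 (EGFP) on the log2 scale (SE 0.14), with limma adjusted p of 0.999, 1.00, 0.755 and 0.981. With 1 doxycycline array left out, SESN1 in the 4-1 line ran from -0.15 (without replicate 1) to 0.09 (without replicate 2), and in the 2-4 line from 0.010 (without replicate 2) to 0.25 (without replicate 3). For EGFP, leaving out an array that had no doxycycline gave -0.17 (replicate 2) or 0.013 (replicate 3). SESN3 was dim, with levels of 5.89 to 6.28 on low-TACC3 and 5.74 to 6.02 on high-TACC3 arrays, and medians of 5.99 and 5.94. Of its 7 probe sets, the one of brightness rank 3 spread more widely, from 4.43 to 5.94 on low-TACC3 and from 4.20 to 5.16 on high-TACC3 arrays.

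IRS2 and INSR sit at the top of the insulin pathway, as an adaptor protein and the insulin receptor, and FOXO factors are known to raise them when insulin signalling is low. INSR levels on the low-TACC3 arrays were 10.04, 10.13 and 10.31 (lowest, median and highest), against 9.56, 9.90 and 10.05 on the high-TACC3 arrays. On 7 of the 9 arrays INSR was above its highest level on the 15. Its next probe set by signal did not overlap, at 9.40 to 9.59 on low-TACC3 and 8.99 to 9.27 on high-TACC3 arrays. The dimmest of its 5 probe sets had the opposite order, with medians of 5.57 and 5.65. IRS2 divided the low-TACC3 arrays. It was 10.60 to 10.71 on the 3 arrays of lowest TACC3 and 11.02 to 11.23 on the other 6 low-TACC3 arrays, against 10.74 to 11.12 on the 15. The 3 arrays of lowest TACC3 thus had less IRS2 than any of the 15, and the other 6 overlapped the upper end of the 15. The second IRS2 probe set followed the first over the 24 arrays with a Pearson r of 0.84.

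CCNG2, an unusual cyclin that accumulates in resting cells, had the same division among the low arrays. Its levels were 10.70 to 10.81 on the 3 arrays of lowest TACC3 and 11.09 to 11.32 on the other 6, against 10.40 to 11.09 on the 15. TXNIP, an inhibitor of thioredoxin and of glucose uptake that also answers to glucose, had the reverse one. It was 13.34 to 13.39 on the 3 arrays and 13.11 to 13.33 on the other 6, against 13.02 to 13.39 on the 15. The lowest of the 3, 13.336, and the highest of the 6, 13.334, were almost equal. Only 1 of the 9 arrays exceeded the highest TXNIP level of the 15. The TXNIP probe sets of brightness rank 2 and 3, also bright, had median differences of 0.06 and 0.05. On these, 0 of the 9 arrays exceeded the highest of the 15. TXNIP varied least in range of the 10 genes, 0.37 over all 24 arrays, where PDK4 had 2.33.

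**Figure D3:**
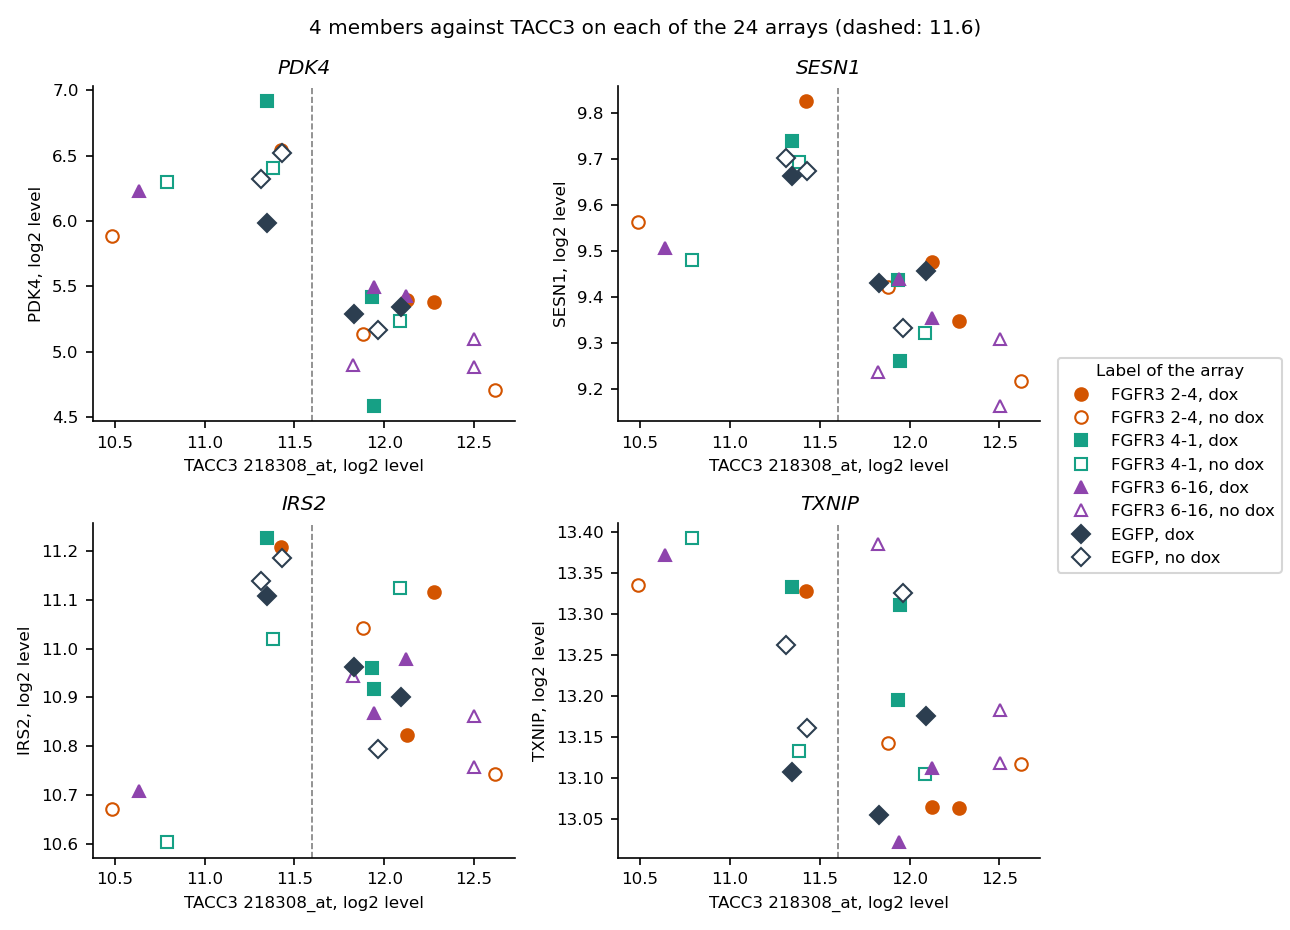
Log2 levels of PDK4, SESN1, IRS2 and TXNIP (vertical) against TACC3 (horizontal) on each of the 24 arrays, with shape and colour for the labelled line and filled symbols for doxycycline. PDK4 and SESN1 lie higher left of the dashed threshold, while the 3 arrays of lowest TACC3 have the lowest IRS2 values, 10.60 to 10.71, and high TXNIP values, 13.34 to 13.39.

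The 2 FOXO genes were themselves higher in the median on the low-TACC3 arrays. FOXO3 had 11.31, 11.43 and 11.70 (lowest, median and highest), against 10.91, 11.17 and 11.36 on the high-TACC3 arrays, and 7 of the 9 arrays exceeded the highest of the 15. On the 3 arrays of lowest TACC3 it was 11.31 to 11.37, and on the other 6 it was 11.42 to 11.70. FOXO1 had 8.55, 8.70 and 9.02, against 8.23, 8.46 and 8.75 on the high-TACC3 arrays. Here the 3 arrays of lowest TACC3 were the highest, at 8.82 to 9.02, against 8.55 to 8.78 on the other 6. The second FOXO1 probe set did not overlap between the sides, at 7.96 to 8.22 on low-TACC3 and 7.68 to 7.94 on high-TACC3 arrays. For FOXO3, 3 further probe sets that the annotation also gives to FOXO3B, a near-identical copy, were left out. An array measures FOXO mRNA, and not the location or phosphorylation of the protein.

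KLF9 encodes a Krüppel-like zinc finger factor that FOXO factors and glucocorticoid hormones are known to induce. Its brightest probe set had levels of 6.83, 6.97 and 7.24 on low-TACC3 arrays, against 6.55, 6.77 and 6.99 on high-TACC3 arrays, with 4 of the 9 arrays higher than any of the 15. Of its 5 probe sets, the one of brightness rank 3 did not overlap, at 6.43, 6.70 and 7.04 on low-TACC3 arrays against 5.39, 5.73 and 5.93 on high-TACC3 arrays. It was dim, at the 28.8th percentile of all probe set means, and was not shown to lie above background on the high-TACC3 arrays. The one of rank 2 had the opposite order of medians, 6.24 and 6.40. These probe sets disagreed: their Pearson r with the brightest over the 24 arrays was 0.60 for rank 3 and -0.30 for rank 2. Over all 38 probe sets of the 10 genes, 31 had a higher median on the low side. By 1 probe set per gene, 46.3% of all genes did so, and the share over all probe sets was not computed. Probe sets of the same gene are not independent, so this count is a description only. On 5 the sides did not overlap, all upward, where 1.95% of all 54675 probe sets did so. These were the brightest PDK4 and SESN1 probe sets and 1 dimmer probe set each of INSR, FOXO1 and KLF9.

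**Figure D4:**
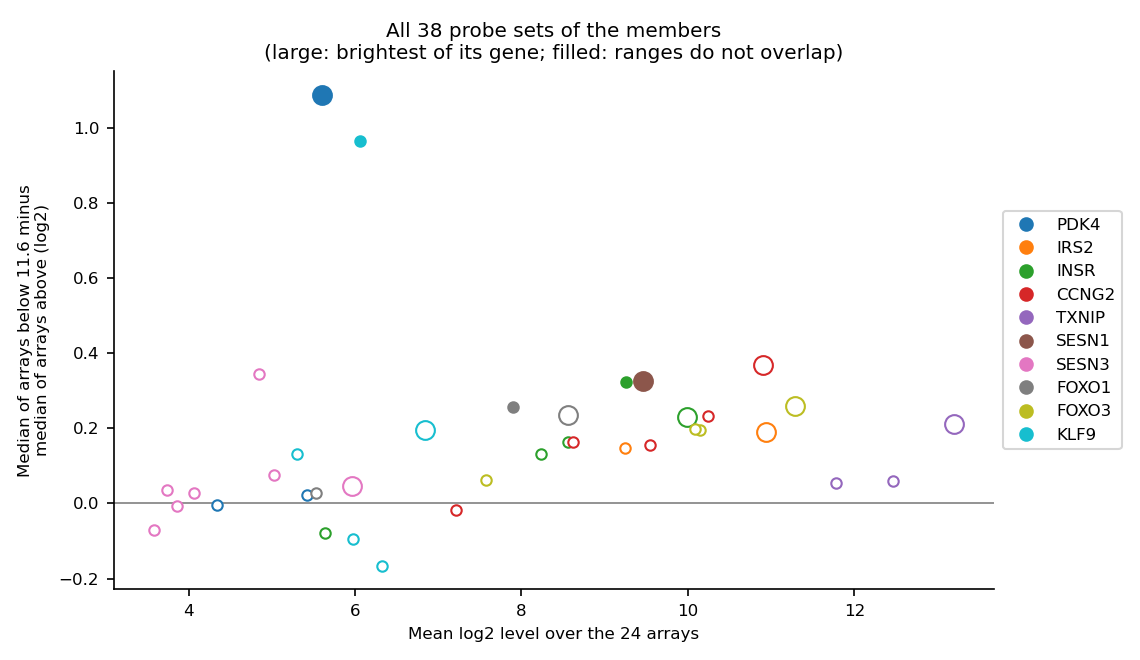
Median log2 level on low-TACC3 minus high-TACC3 arrays (vertical) against the mean level (horizontal) for each of the 38 probe sets of the 10 genes, coloured by gene. Large symbols are the brightest probe set of a gene and filled ones the 5 whose ranges do not overlap. A KLF9 probe set that is not the brightest of its gene lies next to PDK4 near the top, and both are dim.

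Other measures differed between the sides as well. The log2 excess of 3' over 5' signal on the array's degradation controls, a sign of RNA integrity, was 0.28 to 0.42 for GAPDH on the low-TACC3 arrays and 0.20 to 0.29 on the high-TACC3 arrays. For ACTB it was 0.79 to 1.17 on low-TACC3 and 0.70 to 0.97 on high-TACC3 arrays. TACC3 is also a mitotic spindle gene, and 12 of 12 proliferation markers had a lower median on the low-TACC3 arrays, with a median difference of -0.24. Of all genes, 46.3% had a higher median there. Their mean level was 10.56 to 11.47 on low-TACC3 and 11.37 to 11.83 on high-TACC3 arrays. MCM5, a replicative helicase subunit, and PCNA, the polymerase clamp named after its values were seen, did not overlap and were lower on the low side. The margins were narrow. The highest low-TACC3 level was 11.09 for MCM5 and 13.10 for PCNA, against a lowest high-TACC3 level of 11.10 and 13.11. The urothelial markers were uneven between the sides: 5 of 11 had a higher median on low-TACC3 arrays, 2 did not overlap upward and 1 did not overlap downward. UPK2 and UPK1B, uroplakins of the differentiated urothelium, had medians of 9.30 and 13.02 on low-TACC3 arrays, against 8.68 and 12.43 on high-TACC3 arrays, with overlap. GATA3, a luminal transcription factor, had 13.60 and 13.26 without overlap. CDH1 (12.97 and 12.54) and KRT18 (13.59 and 13.96), named after their values were seen, were the other markers without overlap. The part of RNA integrity, of proliferation and of urothelial markers in the levels of the 10 genes was not tested. Markers of fibroblasts, leukocytes and endothelium had overlapping mean log2 levels: 7.72 to 7.88, 6.61 to 6.81 and 7.25 to 7.41 on low-TACC3 arrays, against 7.69 to 7.85, 6.62 to 6.84 and 7.33 to 7.55 on high-TACC3 arrays. 0 of their 24 measured genes separated.

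Other genes of the pathway were read from lists. Of 28 measured further FOXO targets, 20 had a higher median on low-TACC3 arrays, 5 did not overlap upward and 1 did not overlap downward. The upward share was 17.9%, against 2.90% of all genes and 3.41% of those with a mean log2 level of at least 6. In other lists of this report it was 18.2% (urothelial), 14.3% (glucocorticoid-responsive) and 12.5% (family relatives). It was 0% in the insulin pathway, proliferation, fibroblast, leukocyte and endothelial lists. The lists were chosen with earlier results of these data known. A downward separation was seen for 3.09% of all genes. These targets were mostly bright, with 4 of the 28 below the median probe set signal. The median difference was 0.23. FBXO32, a muscle atrophy ubiquitin ligase, had medians of 9.10 on low-TACC3 and 8.24 on high-TACC3 arrays and did not overlap. BCL6, a transcriptional repressor, had 11.16 and 10.54, and PCK1, an enzyme of gluconeogenesis, had 4.50 and 4.41, both with overlap. The other genes apart, named after their values were seen, were MAP1LC3B and ATG14 of autophagy, the death ligand TNFSF10 and the repressor HBP1 upward, and the Krüppel-like factor KLF2 downward. Of 23 measured genes of the insulin, PI3K and AKT pathway, 11 had a higher median on low-TACC3 arrays, with a median difference of -0.02, and 0 did not overlap. PIK3R3, a regulatory PI3K subunit, had medians of 9.46 and 8.88.

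Of 16 family relatives, 10 had a higher median on low-TACC3 arrays, with a median difference of 0.03. FOXO6 had medians of 10.95 on low-TACC3 and 9.71 on high-TACC3 arrays without overlap, on a probe set whose suffix marks possible cross-hybridisation. FOXO4, named after its values were seen, had 7.28 and 6.97 without overlap. PDK1, a relative of PDK4 known to rise in hypoxia, was lower on low-TACC3 arrays without overlap, at 8.397 and 9.11. ARRDC4, an arrestin relative of TXNIP that shares its glucose control, had 8.38 and 8.77, against TXNIP's own 13.33 and 13.12. ARRDC4 and TXNIP thus had opposite signs of difference. The listed relatives ARRDC3 (9.66 and 9.05) and ARRDC2 (7.95 and 7.92) had the sign of TXNIP, both with overlap. They were named after their values were seen. Of 7 measured glucocorticoid-responsive genes, which share KLF9's other known inducer, 5 had a higher median on low-TACC3 arrays, 1 did not overlap upward and 1 did not overlap downward. TSC22D3, also a FOXO target, had 11.45 and 10.61 without overlap, while FKBP5, a chaperone of the receptor, had 8.88 and 9.51 with overlap. ERRFI1, a feedback inhibitor of EGFR named after its values were seen, was lower on low-TACC3 arrays without overlap, at 10.09 and 10.49.

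By label, the comparison that the series design implies is whether doxycycline changed genes where the hairpin targets FGFR3 and not where it targets EGFP. Limma called 0 of 10 genes at an adjusted p under 0.05 in any of the 4 lines, where 0% of the 19775 genes were called in each. At an unadjusted p under 0.05, 0 of the 10 genes passed in any line, where 487 (2-4), 223 (4-1), 1539 (6-16) and 505 (EGFP) of all genes did. The medians of the 10 changes were 0.08, -0.04 and 0.11 in the 2-4, 4-1 and 6-16 lines and -0.07 in the EGFP line, against -0.01, -0.01, 0.03 and 0.02 over all genes. These medians moved with single arrays, and those of the 4-1 and EGFP lines changed sign, while those of 2-4 and 6-16 stayed above 0. Leaving out a doxycycline array took the median to 0.0072 for 2-4 (replicate 2), to -0.13 or 0.072 for 4-1 (replicate 1 or 2) and to 0.070 for 6-16 (replicate 2). Leaving out an array that had no doxycycline took it to 0.17 for 2-4 (replicate 2) and to 0.15 for 6-16 (replicate 1). For EGFP this gave -0.18 or 0.0064 (replicate 2 or 3). In the 6-16 line the arrays with doxycycline lay above all those without for 4 of 10 genes, PDK4, CCNG2, SESN1 and SESN3, where 9.10% of all genes did so. For CCNG2 and SESN3 the gaps were very small. Their lowest levels with doxycycline were 10.796 and 5.967, and their highest without it were 10.788 and 5.959. Their changes in this line were 0.05 (SE 0.19) and 0.04 (SE 0.08), and the SESN3 signal was dim. Of the 6-16 arrays, 1 of the 3 with doxycycline and 0 of the 3 without were low-TACC3 arrays. In the other 3 lines 0 of 10 genes separated in either direction, against 3.35%, 0.986% and 6.08% of all genes upward and 4.08%, 2.80% and 4.53% downward in the 2-4, 4-1 and EGFP lines.

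The mean FGFR3 line change minus the EGFP line change was above 0 for 9 of 10 genes, with a median of 0.14 against -0.02 over all genes. It was 0.78 ± 0.57 (SE) for PDK4 and 0.22 ± 0.15 for INSR. For SESN1, IRS2 and FOXO1 it was 0.16 ± 0.16, 0.17 ± 0.16 and 0.15 ± 0.17, and for SESN3 it was -0.15 ± 0.09. TXNIP, FOXO3, KLF9 and CCNG2 had 0.12, 0.12, 0.09 and 0.04. Limma called 0 of these 10 and 0% of all genes, each of the 10 with an adjusted p of 1.00. At an unadjusted p under 0.05, 0 of the 10 and 428 of all genes passed. The 95% interval for PDK4 was -0.42 to 1.98. Leaving out an EGFP array that had no doxycycline gave PDK4 1.20 (replicate 2) or 0.52 (replicate 1), and it had 0.26 with the mean of its 3 probe sets in place of the brightest. Without replicate 2 of those EGFP arrays the median of the 10 was 0.28, with 0.29 for IRS2 and 0.28 for SESN1, and without replicate 1 IRS2 had 0.093 and INSR 0.11. Without replicate 3 of them SESN1 had 0.095. SESN3 had -0.044 without replicate 3 of the EGFP arrays that had doxycycline. Without 6-16 doxycycline replicate 2, the median was 0.091 and FOXO1 had 0.092. FOXO3, KLF9 and CCNG2 were each below 0 with 1 array left out.

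**Figure D5:**
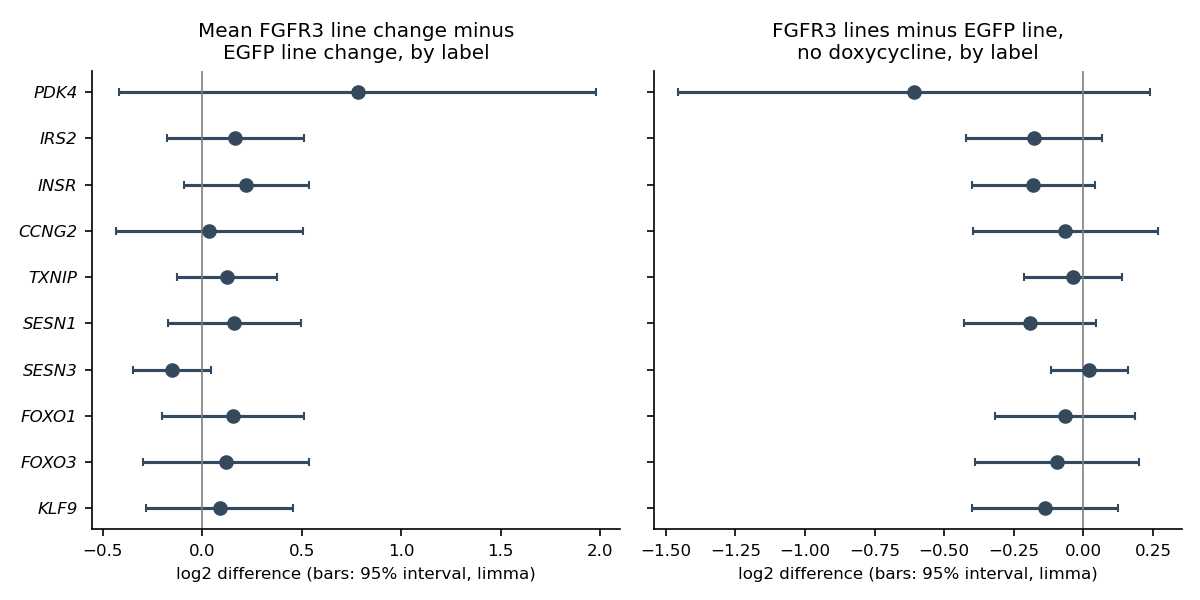
Log2 differences by label with 95% intervals from limma for the 10 genes. Left, the mean FGFR3 line change minus the EGFP line change; right, FGFR3 lines minus EGFP line without doxycycline. All 20 intervals include 0, and the comparisons share the arrays without doxycycline, which enter with opposite sign.

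The FGFR3 lines were also set against the EGFP line in the absence of doxycycline. This comparison shares its 12 arrays with the one above, with opposite sign, so the values are set side by side and are not separate evidence. The difference was below 0 for 9 of 10 genes, with a median of -0.12 against -0.0036 over all genes. PDK4 had -0.61 ± 0.41 (SE), SESN1 -0.19 ± 0.11, INSR -0.18 ± 0.11 and IRS2 -0.18 ± 0.12, with limma adjusted p of 0.994 each. SESN3 alone was above 0, at 0.02 ± 0.07. Limma called 0 of the 10 and 0% of all genes, and 0 of the 10 and 576 of all genes passed at an unadjusted p under 0.05. Of the arrays without doxycycline, 3 of the 9 labelled as FGFR3 lines and 2 of the 3 labelled as the EGFP line were low-TACC3 arrays. PDK4 had -1.03 without replicate 2 of the EGFP arrays, the only high-TACC3 array of the 3, and -0.35 without replicate 1. The median of the 10 was -0.29 without replicate 2 and -0.041 without replicate 3 of these EGFP arrays. Without replicate 2, INSR had -0.28, SESN1 -0.31 and IRS2 -0.30, and without replicate 1 INSR had -0.071 and IRS2 -0.10. Without replicate 3, SESN1 had -0.13.

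For 8 of the 10 genes the SD within labelled groups was larger than the SD over the 24 arrays. It was 0.66 and 0.65 for PDK4 and 0.22 and 0.20 for FOXO3. For SESN1 the SD within labelled groups was slightly smaller, at 0.178 and 0.180.

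The genes whose levels followed these 10 most closely over the 24 arrays were found by Pearson r, given as a description. The points share platform and normalization and the arrays fall into separate sets by level. PDK4 was most like NATD1 (r 0.96) and PDE8B, a cyclic AMP phosphodiesterase (0.95). PDE8B had 9.20 to 9.66 on low-TACC3 and 7.36 to 8.14 on high-TACC3 arrays. SESN1 was most like EPB41L4A-AS1 (0.95) and ZFAS1 (0.94), noncoding RNAs that host small nucleolar RNAs. FOXO1 was most like TLE1 (0.94), a corepressor, and NPTXR (0.94), and FOXO3 like EFNB2 (0.96), an ephrin ligand, and CRACDL (0.95). INSR was most like WBP1L (0.91) and PRKCZ (0.91), an atypical protein kinase C. IRS2 was most like E2F8 (0.93), a cell cycle repressor, and HLTF (0.92), CCNG2 like LAMB1 (0.96), a laminin chain, and MORC3 (0.96), and TXNIP like RALGAPA2 (0.92) and INAVA (0.92). KLF9 and SESN3 had weaker matches, with NEURL2 (0.78) and ZNF19 (0.78) for KLF9 and LINC02273 (0.81) and LRRC63 (0.79) for SESN3.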

How the data were processed

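The authors deposited log2 values for 54675 Affymetrix probe sets on 24 arrays of RT112 cells. Per the submitters' processing notes the tools were RMA, a method of background correction, quantile normalization and probe summary, and affy. Versions, the probe grouping and a genome build are not given in the sources used here. Quantile normalization removes changes shared by most genes, and signals near background understate differences. Arrays carry no counts, and their number sets the precision.

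Gene names came from the platform annotation in GEO: 41097 had 1 symbol, and 1801 with several and 11777 with none were left out. Of those named, 41043 matched RefSeq by Entrez identifier. The brightest probe set was kept for each of 19775 genes, with no filter on low values. A limma model (version 3.58.1, R 4.3.3) held 1 coefficient per labelled group, with 16 residual degrees of freedom. P-values are two-sided and adjusted by Benjamini-Hochberg over all genes, with a threshold of 0.05. The steps were tested on simulated data. Alternatives were a replicate block, array weights, another variance prior, centred arrays, a filter on dim genes, averaged probe sets, single-line fits and leaving out arrays.

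The genes, lists and the TACC3 threshold were chosen with earlier results of these data known. Text names all 10 genes, up to 3 genes per list by largest label contrast and the 2 most alike genes of each, and says where a gene was picked after its values were seen.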

Additional observations from a re-analysis of the deposited data

How the results depend on the processing

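No alternative gave a call for any of the 10 genes in any comparison by label. The count of all genes called in the 6-16 line, 0 with limma and 1539 at an unadjusted p under 0.05, was 1291 with array weights, 1 with the replicate block and 1 when fitted on its own 6 arrays, and the cause was not tested. PDK4 then had an adjusted p of 0.280 with array weights in the 6-16 line. SESN3 in the FGFR3 lines minus the EGFP line without doxycycline turned to -0.059 with averaged probe sets. With averaged probe sets, 4 genes in place of 2 did not overlap between the sides of TACC3, where 2.40% of all genes did so upward, and the differences were 0.42 for PDK4 and 0.07 for TXNIP. Without the 3 arrays of lowest TACC3, chosen after seeing the data, 3 genes did not overlap, against 4.51% of all genes upward, with 0.41 for FOXO3 and 0.09 for TXNIP. In both cases, and with centred arrays, 10 of 10 medians were higher on the low-TACC3 arrays. The filter on dim genes kept 8 of the 10 genes, without PDK4 and SESN3.

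Some signs turned with 1 array left out. In the FGFR3 line change minus the EGFP line change, CCNG2 ran from -0.12 to 0.30, FOXO3 from -0.0060 to 0.34 and KLF9 from -0.063 to 0.22. Without doxycycline, CCNG2 ran from -0.33 to 0.087, FOXO3 from -0.32 to 0.028, KLF9 from -0.28 to 0.011, SESN3 from -0.0043 to 0.068 and TXNIP from -0.082 to 0.00085. With doxycycline, PDK4 in the 4-1 line ran from -0.97 to 0.19, SESN1 in it from -0.15 to 0.090, and SESN1 in the EGFP line from -0.17 to 0.013. The main model did not pair the arrays by replicate number. Between labelled groups, residuals of the 84 pairs of the same number had a mean correlation of 0.08, from -0.73 to 0.88. Pairs of other numbers had a mean of -0.03. Of the 84 pairs, 43 were above 0.1, and 12 of 24 arrays were most like one of their own number. Whether the numbers mark pairs was not tested.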
